A study of Mus musculus with 3 samples.

Results

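The genes described here are 5 of the MHC class II system, H2-Ab1, H2-Aa, H2-Eb1, Cd74 and Ciita, taken by symbol from the 32285 genes of the deposited matrices and followed through the macrophage, dendritic, B and epithelial nuclei of the mouse lacrimal gland. All 5 symbols were found in all 3 libraries. MHC class II molecules sit on the surface of antigen-presenting cells and show peptides from taken-up proteins to CD4+ T cells. Each molecule is a pair of an alpha and a beta chain, which is assembled with the invariant chain and loaded with peptide in acidic vesicles. Transcription of the chains and of the invariant chain depends on the coactivator CIITA, which binds no DNA itself and is recruited by factors on the X and Y boxes of their promoters. Macrophages, dendritic cells and B cells carry the system constitutively or on activation, and epithelial cells of glands can acquire it under interferon gamma.

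Nuclei were isolated from lacrimal glands and read by droplet sequencing with 10x Genomics 3′ chemistry, which counts unique molecular identifiers (UMIs, single captured RNA molecules). There was 1 library per group: normal control mice, mice with dry eye produced by scopolamine (SCOP, a muscarinic antagonist) together with dry stress (DS), and mice with the same scopolamine and dry stress given tamsulosin, an alpha-1 adrenergic antagonist. They are called the control, scopolamine and tamsulosin libraries. Strain, sex, age, dose and the number of animals per library are not stated, and the protocol names a sort of red fluorescent nuclei without saying whether it was used for these libraries. With 1 library per group no difference between conditions could be tested. All intervals below are 95% intervals that cover counting error only, and differences between animals, dissections or library preparations cannot be told apart from the treatments.

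After filtering, 6780 control, 9205 scopolamine and 10864 tamsulosin nuclei were kept, with medians of 2304.5, 1736 and 3354 UMIs. Few barcodes were shared between libraries, 22 to 35 per pair. Nuclei were clustered with all class II genes left out, and none of these genes was used to name a cluster, so no level below was used to form or name the class it is given for. The levels still depend on how the classes were drawn. RNA of acinar cells was found in every class: the 18 acinar markers made up 22364, 61812 and 89820 of every 1000000 UMIs in macrophage-like nuclei of the control, scopolamine and tamsulosin libraries. T or NK-like nuclei, which in the mouse should carry little class II RNA, therefore serve as the level to set beside each other class.

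H2-Aa encodes the alpha chain and H2-Ab1 the beta chain of the I-A molecule, and H2-Eb1 encodes the beta chain of I-E. All 3 lie within the MHC on chromosome 17 of GRCm38 (mm10). H2-Ab1 (ENSMUSG00000073421) spans positions 34257689 to 34269419 on the plus strand, H2-Aa (ENSMUSG00000036594) spans 34282744 to 34287823 on the minus strand, and H2-Eb1 (ENSMUSG00000060586) spans 34305867 to 34316674 on the plus strand. Ciita (ENSMUSG00000022504) lies on chromosome 16 from 10480059 to 10528418, with up to 20 exons in a transcript. Positions are those of the GENCODE annotation of that build.

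Because the chain genes are read through shared promoter elements, the promoters of H2-Aa, H2-Eb1 and the related H2-DMb1 are shown with those elements in capitals. They come from RefSeq promoter windows on GRCm38.p6, which held 2 of the 5 genes and 8 class II genes in all. The stretches run 5′ to 3′ on the gene's strand from 120 to 21 bases before the annotated start. They are chr17:34287844-34287943 (minus strand), chr17:34305747-34305846 (plus) and chr17:34153071-34153170 (plus).
H2-Aa: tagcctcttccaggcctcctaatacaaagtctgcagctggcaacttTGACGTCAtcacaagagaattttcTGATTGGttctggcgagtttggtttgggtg
H2-Eb1: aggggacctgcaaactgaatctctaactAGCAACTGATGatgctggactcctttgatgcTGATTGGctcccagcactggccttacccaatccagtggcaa
H2-DMb1: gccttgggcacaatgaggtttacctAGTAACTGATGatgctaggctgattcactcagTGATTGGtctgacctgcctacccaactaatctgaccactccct
The capitals mark an X box form (AG, any 2 bases, AC, any base, GATG), the Y box form TGATTGG and, in H2-Aa, the cAMP response element TGACGTCA. These forms were chosen after the sequences were seen, and both strands were searched. TGATTGG was in the windows of 7 of the 8 class II genes, and in 7.82% of all 32851 promoter windows. The X box form was in 4 of the 8 and in 0.968% of all windows, and TGACGTCA was in 1.79% of all windows. The X and Y forms did not overlap, and lay 20 bases apart in H2-Eb1 and H2-Eb2, 21 in H2-DMb1 and 85 in H2-Oa. These matches describe letters in the windows and say nothing of binding in these nuclei.

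Levels are given as counts per 1000000 UMIs of a class (CPM). The UMIs of the 5 genes were concentrated in few nuclei. Macrophage- and dendritic-like nuclei together were 5.24%, 7.01% and 4.51% of the control, scopolamine and tamsulosin nuclei, and held 62.2%, 59.9% and 43.5% of the 1227, 1851 and 4293 UMIs of the 5 genes. B-like nuclei held a further 6.78% in the tamsulosin library. Acinar-like, duct-like and low-complexity nuclei, which were 78.2% to 82.3% of nuclei, held 31.0%, 25.7% and 41.0%.

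**Figure D1:**
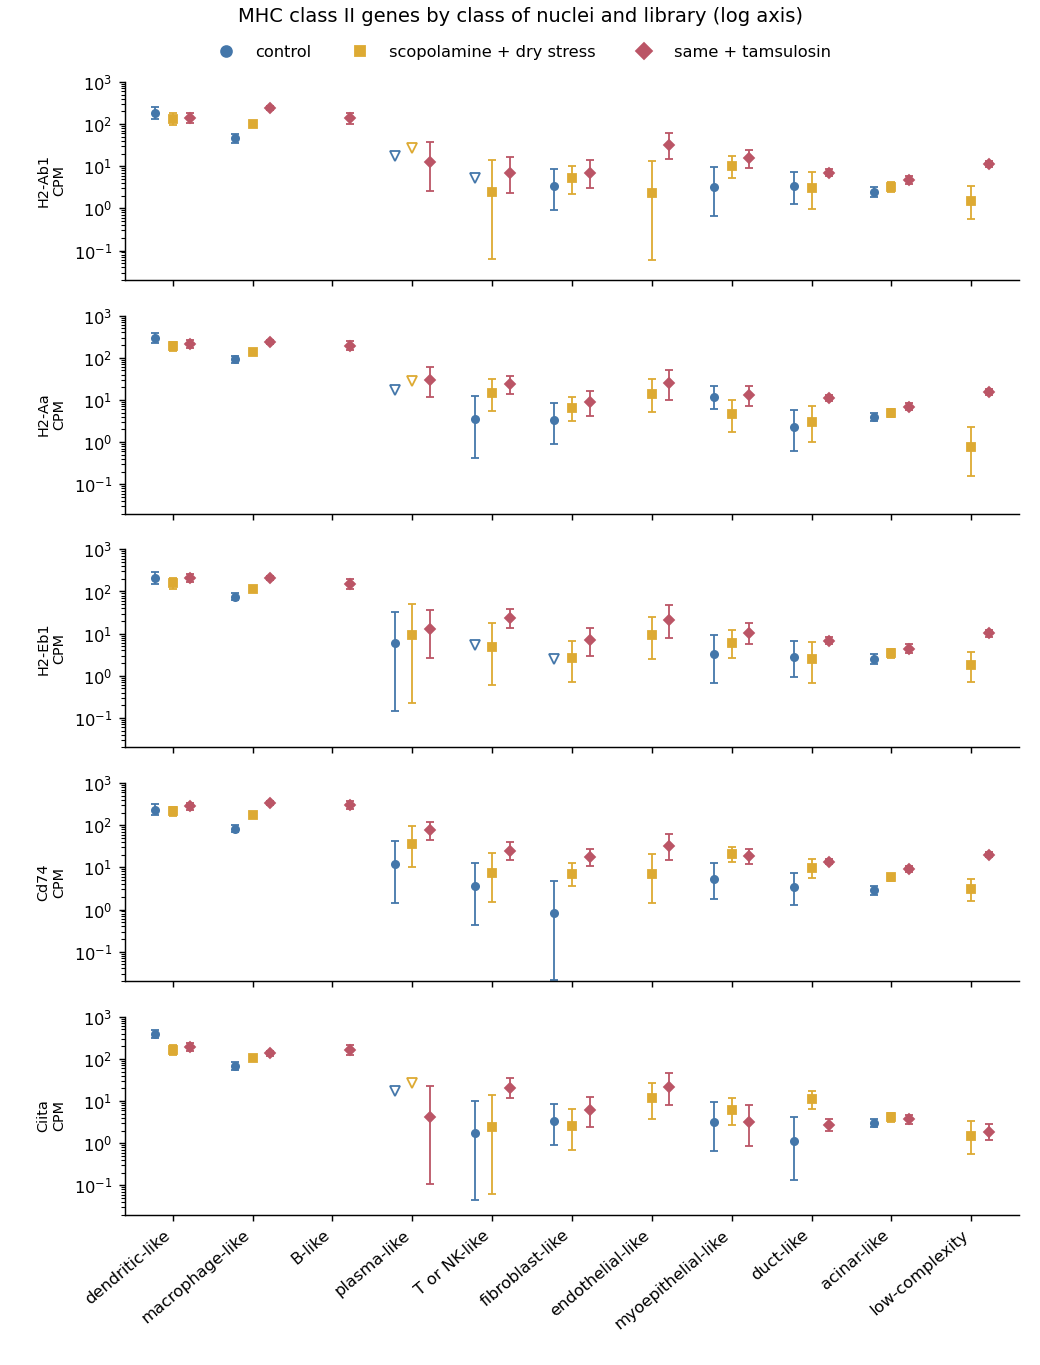
Levels of the 5 genes in CPM (log axis) by class of nuclei, with 1 symbol per library and bars for the 95% Poisson interval. Open triangles stand for 0 UMIs and mark the limit of 3 counts, and classes with fewer than 50 nuclei in a library are left out. All 5 genes were highest in dendritic-, macrophage- and B-like nuclei, and every other class stayed below 80 CPM for each gene.

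Macrophage-like nuclei numbered 300, 518 and 401 and made up 4.42%, 5.63% and 3.69% of the nuclei. They were 2 clusters: cluster 10, with Ms4a7 and Ctss among its leading genes, and cluster 16, led by F13a1 and Mrc1. The macrophage gene Adgre1 (F4/80) was seen in 38.6% of nuclei of cluster 10 and 65.7% of cluster 16. At least 15 of the 16 macrophage markers were detected, by any UMI, in each library. Some were rare: in cluster 10 Cd163 was seen in 0.702% of nuclei and Cd68 in 2.92%. Dendritic markers were also seen: Wdfy4 in 22.9% of cluster 10 and 21.98% of cluster 16, Itgax in 15.2% of cluster 10 and Clec10a in 27.5% of cluster 16. The dendritic markers summed to 177, 259 and 263 CPM in the class, below the macrophage markers at 1570, 2401 and 2329 CPM. All 5 genes were lowest in the control library and highest in the tamsulosin library. For the 4 genes of the molecule itself (the 3 chains and Cd74), the summed level was 296 CPM in control (419 UMIs), 529 in scopolamine (686 UMIs) and 1013 in tamsulosin (1282 UMIs). The sum was 1.79-fold higher in scopolamine than in control (interval 1.58 to 2.02), 1.92-fold higher in tamsulosin than in scopolamine (1.75 to 2.11) and 3.42-fold higher in tamsulosin than in control (3.06 to 3.83).

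The alpha chain gene H2-Aa was at 91.1, 138 and 232 CPM in macrophage-like nuclei of the control, scopolamine and tamsulosin libraries. Its beta chain partner H2-Ab1 was at 46.6, 99.4 and 236 CPM. The I-E beta chain gene H2-Eb1 was at 75.5, 114 and 210 CPM. Each of the 3 chain genes thus stood in the same order of libraries, and H2-Ab1 had the widest span, 5.07-fold between control and tamsulosin (3.87 to 6.72), against 2.55-fold for H2-Aa (2.07 to 3.16) and 2.78-fold for H2-Eb1 (2.21 to 3.52). Cd74 (ENSMUSG00000024610, chromosome 18, positions 60803848 to 60812652), whose product blocks the peptide groove until loading, was at 82.6, 177 and 334 CPM, a ratio of 4.05 between tamsulosin and control (3.29 to 5.01).

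Ciita, the coactivator gene, was at 68.5, 104 and 135 CPM. It had the smallest ratio of the 5 between tamsulosin and scopolamine, 1.30 (1.03 to 1.64), and between tamsulosin and control, 1.97 (1.53 to 2.56). Its share of the UMIs of the 5 genes was 18.8% in control (15.5% to 22.4%), 16.4% in scopolamine (14.0% to 19.2%) and 11.8% in tamsulosin (10.2% to 13.5%). The control and tamsulosin intervals of that share did not overlap. By cluster this held only in cluster 10, at 18.4% (14.2% to 23.4%) in control and 11.2% (9.37% to 13.1%) in tamsulosin. In cluster 16 the intervals overlapped, at 19.3% (14.3% to 25.1%) and 13.9% (10.3% to 18.2%).

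**Figure D2:**
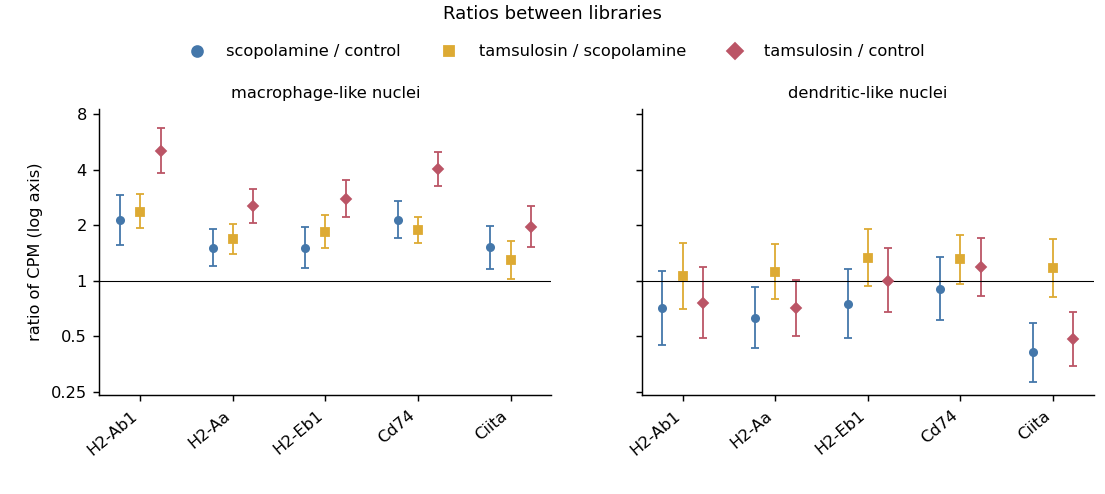
Ratios of CPM between libraries (log axis) for each gene, with 95% exact intervals for counting error, in macrophage-like nuclei (left) and dendritic-like nuclei (right). Nuclei were not thinned for these ratios. In macrophage-like nuclei all 15 ratios lie above 1, whereas in dendritic-like nuclei the Ciita ratios against control are 0.411 and 0.484.

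A gene was counted as higher or lower in a comparison when its log2 ratio (5 CPM added to each level) differed by at least 1.5-fold from the median gene of the class. In macrophage-like nuclei 5 of 5 members were counted higher in scopolamine than in control, beside 17% of the 6362 genes tested. That count was 2 of 5 with at least 1600 UMIs per nucleus or with no filter on low levels. It was 3 of 5 on nuclei thinned to 1000 UMIs or with dendritic-like nuclei pooled in. The share of all genes was not taken under these settings, so their counts cannot be set beside it. In cluster 10 alone the count was 3 of 5, beside 14% of genes. The count was 5 of 5 in tamsulosin against scopolamine, beside 8.81% of 5950 genes, and 5 of 5 in tamsulosin against control, beside 24% of 6222 genes. The members' median log2 difference relative to the median gene was 0.80, 1.11 and 1.91 in these comparisons, which share libraries with each other. Some calls were reached only relative to that median: in scopolamine against control the log2 differences of H2-Aa, H2-Eb1 and Ciita were 0.57, 0.56 and 0.57 before it was subtracted, and in tamsulosin against scopolamine that of Ciita was 0.36, all below the threshold.

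Both macrophage-like clusters held the same order of libraries for each of the 5 genes. In cluster 10 the 4 genes of the molecule summed to 407, 599 and 1085 CPM in the control, scopolamine and tamsulosin libraries (190, 374 and 291 nuclei). In cluster 16 they summed to 217, 383 and 817 CPM (110, 144 and 110 nuclei). The cluster rich in Mrc1 and F13a1 was thus the lower of the pair in every library. H2-Eb1 in cluster 10 was at 116 CPM in control and 127 in scopolamine, a ratio of 1.09 (0.80 to 1.501), so that gene was not separable between these libraries there. Ciita in cluster 10 was at 91.9, 115 and 136 CPM, with a ratio of 1.252 (0.89 to 1.78) between scopolamine and control.

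**Figure D3:**
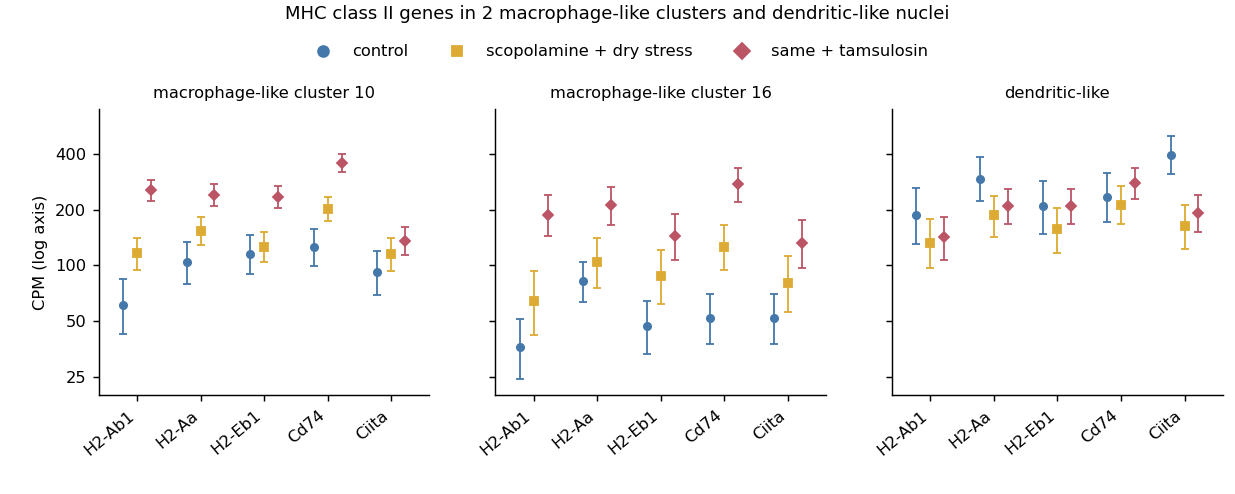
Levels of the 5 genes in CPM (log axis) in macrophage-like clusters 10 and 16 and in dendritic-like nuclei, with 95% Poisson intervals. In both macrophage-like clusters the order is control, scopolamine, tamsulosin for every gene, and in dendritic-like nuclei the control library is highest for H2-Ab1, H2-Aa and Ciita.

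Other values moved with these levels. The 16 macrophage markers summed to 1570, 2401 and 2329 CPM in macrophage-like nuclei of the 3 libraries, so they were higher in scopolamine than in control but lay close together in scopolamine and tamsulosin. Class II RNA in T or NK-like nuclei also differed between libraries: the 4 genes summed to 7.05, 29.4 and 79.4 CPM there (4, 12 and 57 UMIs). With that level subtracted, the macrophage ratios for the sum of 4 were 1.73, 1.87 and 3.23 in the order given above, an alternative chosen after seeing the data. The part of the marker difference and of library composition in the results was not tested.

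Counting nuclei gave a smaller difference between control and scopolamine. With each nucleus thinned to 1000 UMIs, a UMI of any of the 5 genes was seen in 36.3% of macrophage-like nuclei in control (30.9% to 42.1%), 38.8% in scopolamine (34.5% to 43.2%) and 52.1% in tamsulosin (47.1% to 57.1%). Without thinning the shares were 59.3%, 54.4% and 72.8%. On thinned nuclei the ratio of the summed level was 1.41 between scopolamine and control (1.16 to 1.73), and that of H2-Eb1 was 0.97 (0.66 to 1.45). The corresponding shares in T or NK-like nuclei were 0.758%, 4.28% and 10.2%, at median depths of 2247.5, 1676 and 2562 UMIs against 2282, 1764.5 and 2513 in macrophage-like nuclei.

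The genes were found together in the same nuclei. Among thinned macrophage-like nuclei with a Cd74 UMI, a UMI of a chain gene was seen in 52.9% in control (18 of 34), 60.0% in scopolamine (42 of 70) and 65.3% in tamsulosin (64 of 98). Among those without a Cd74 UMI the shares were 22.9%, 22.9% and 29.7%. At least 2 of the 5 genes were seen in 10.7%, 15.3% and 23.2% of nuclei. All of these are descriptions of nuclei within 1 library.

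Dendritic-like nuclei numbered 55, 127 and 89. They were cluster 21, led by Wdfy4, which is needed for cross-presentation, with Ccr2, and the small cluster 30, which holds Il12b and Cacnb3 among its leading genes. The dendritic factor Zbtb46 was seen in 21.0% and 40.4% of their nuclei, and Flt3 in 15.6% and 31.9%. Cluster 21 also held macrophage RNA, with F13a1 in 25.4% and Mrc1 and Adgre1 in 24.1% of nuclei, and had no Ccr7 UMI. In cluster 21 the macrophage markers summed to 1063, 877 and 813 CPM and the dendritic markers to 2153, 773 and 1020 CPM, so in the scopolamine library the macrophage markers were the higher. Its name is therefore uncertain. In this class as a whole the order of libraries differed from that in macrophages. H2-Aa was at 294 CPM in control, 186 in scopolamine and 209 in tamsulosin, and the sum of 4 was 925, 689 and 838 CPM. Scopolamine against control gave 0.745 for the sum (0.61 to 0.91) and tamsulosin against control gave 0.906 (0.75 to 1.09), so the tamsulosin and control levels were not separable by counting error.

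Ciita was at 396 CPM in control dendritic-like nuclei (74 UMIs), 163 in scopolamine (55 UMIs) and 191 in tamsulosin (77 UMIs). The ratio to control was 0.411 (0.28 to 0.59) in scopolamine and 0.484 (0.35 to 0.68) in tamsulosin. It was the only member counted lower in scopolamine against control, where 17.3% of 6491 genes were, and no member was counted higher, where 18.9% of genes were. The 15 dendritic markers summed to 1892, 913 and 1077 CPM in these nuclei, so the class markers stood in the same order as Ciita, and their part in the result was not tested. The lower level in scopolamine than in control was that of cluster 21, where the ratio of the sum of 4 was 0.607 (0.49 to 0.76). In cluster 30, with 9, 20 and 18 nuclei and few macrophage markers, the sum was 404, 950 and 944 CPM from 14, 56 and 51 UMIs, a ratio of 2.35 (1.29 to 4.58) in scopolamine against control. There H2-Aa had 4, 18 and 10 UMIs, H2-Eb1 had 3, 17 and 17, Cd74 had 6, 10 and 18 and Ciita had 3, 4 and 0. Several of these UMIs can come from 1 nucleus. On thinned nuclei of cluster 30, 6 of 9, 14 of 20 and 14 of 18 had no UMI of the 5 genes. At least 2 of the genes were seen in 0 of 9, 4 of 20 and 4 of 18. This class also rested on the clustering: with at least 1600 UMIs per nucleus, or with class II genes allowed in the clustering, cluster 21 merged with the macrophages and fewer than 50 dendritic-like nuclei were left per library.

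B-like nuclei could be described only in the tamsulosin library, with 85 nuclei against 2 in control and 6 in scopolamine. All 14 B markers were detected in them by any UMI, but so were 10 of 11 plasma, 12 of 16 T or NK and 18 of 18 acinar markers. The B markers summed to 5991 CPM. The plasma, dendritic, T or NK and macrophage markers summed to 634, 419, 364 and 101 CPM. The acinar markers summed to 84735.5 CPM. H2-Ab1 was at 137 CPM (98.4 to 185), H2-Aa at 195 (149 to 251), H2-Eb1 at 153 (112 to 203), Cd74 at 299 (241 to 367) and Ciita at 163 (121 to 214). The interval of Ciita in B-like nuclei held the 135 CPM of macrophage-like nuclei of the same library, whereas that of H2-Ab1 lay below the 236 CPM of macrophages. Plasma-like nuclei of the tamsulosin library, whose lineage is known to silence Ciita, had 1 Ciita UMI (4.19 CPM) and 18 Cd74 UMIs (75.4 CPM) in 74 nuclei.

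Epithelial nuclei carried low levels of all 5 genes. In acinar-like nuclei, the tear protein secreting cells, the 5 genes summed to 14.9, 21.5 and 28.9 CPM in the control, scopolamine and tamsulosin libraries, from 354, 393 and 446 UMIs. In duct-like nuclei they summed to 13.1, 29.3 and 41.1 CPM, and in the contractile myoepithelial-like nuclei to 27.1, 47.8 and 60.4 CPM. T or NK-like nuclei stood at 8.81 (2.86 to 20.6), 31.9 (17.0 to 54.5) and 100 CPM (78.5 to 126). No epithelial class reached 20 CPM for the mean of any member over any pair of libraries.

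In the tamsulosin library all 3 epithelial classes were below the T or NK-like level, and in the scopolamine library all 3 lay within or below its interval. In the control library the acinar- and duct-like sums lay within the T or NK-like interval, which rests on 5 UMIs. The myoepithelial-like sum of 27.1 CPM (17.6 to 40.1, 25 UMIs) lay above that interval, with intervals that overlapped. The acinar-like sum there joins unlike clusters. Its largest, cluster 1 with 3736 nuclei, was at 24.7 CPM (21.7 to 28.1), above the T or NK-like interval. What makes up this difference was not tested. Shares of nuclei were read for whole classes. Thinned acinar-like nuclei with a UMI of any of the 5 were 2.29%, 3.50% and 3.72%. Thinned duct-like nuclei were 1.30%, 3.71% and 3.84%, beside 0.758%, 4.28% and 10.2% of T or NK-like nuclei. In the scopolamine and tamsulosin libraries these shares are at or below the T or NK-like share and are not read as expression. What makes up the T or NK-like level was not tested, so lying below it does not decide whether epithelial nuclei express the genes. In the control library the acinar-like share of 2.29% (1.90% to 2.73%) lay within the T or NK-like interval of 0.0192% to 4.15%, which rests on 1 of 132 nuclei. Acinar- and duct-like nuclei came largely from different clusters in the 3 libraries, so their class levels are set side by side and no difference is read from them. Some clusters were shared: duct-like cluster 3 was at 28.9 CPM in scopolamine (339 nuclei) and 36.8 in tamsulosin (1806 nuclei), and acinar-like cluster 4 at 20.1 (224 nuclei) and 24.95 (1771 nuclei), with overlapping intervals.

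**Figure D4:**
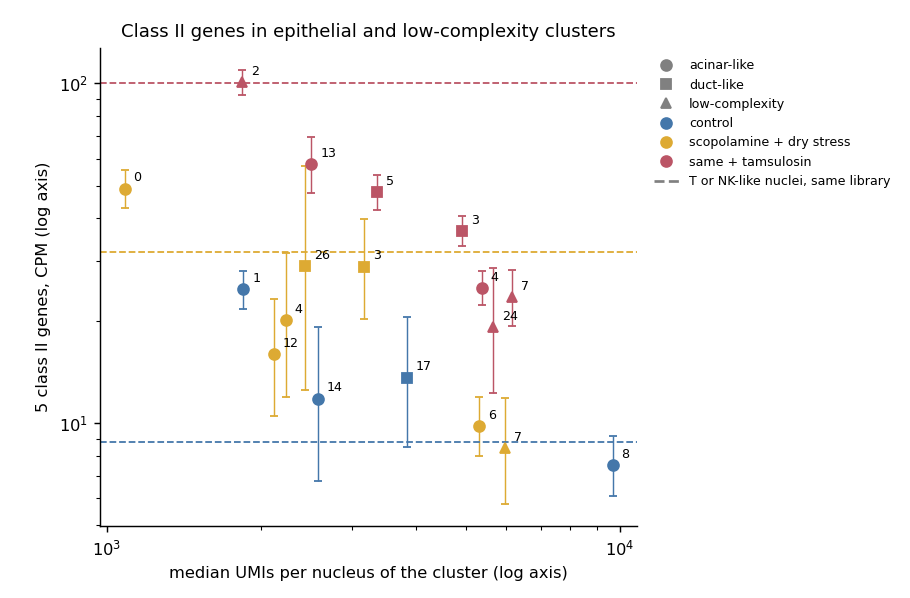
Summed level of the 5 genes in CPM against the median UMIs per nucleus (both log axes) for acinar-like, duct-like and low-complexity clusters with at least 50 nuclei in a library, with 95% Poisson intervals and cluster numbers. Dashed lines give T or NK-like nuclei of the same library, and within each library the shallowest acinar-like cluster has the highest acinar-like level.

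Among acinar-like clusters the shallowest was the highest in each library. In the control library cluster 1 (median 1843 UMIs) was at 24.7 CPM and cluster 8 (median 9669.5 UMIs) at 7.51 CPM. In the scopolamine library cluster 0 (median 1083 UMIs) was at 49.0 CPM and cluster 6 (median 5322 UMIs) at 9.81 CPM. In the tamsulosin library cluster 13 (median 2502.5 UMIs) was at 57.7 CPM and cluster 4 (median 5379 UMIs) at 24.95 CPM. Acinar-like nuclei with a UMI of any immune marker after thinning to 1000 UMIs were then left out, as were nuclei with fewer than 1000 UMIs. Deeper nuclei could still hold immune marker UMIs outside the thinned sample. This kept 3523 of 5159 control, 4006 of 6237 scopolamine and 1781 of 2584 tamsulosin nuclei. The summed level changed little, to 14.3, 19.2 and 27.3 CPM.

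The make-up of the epithelial signal was set beside that of macrophages. Ciita was 20.6%, 19.1% and 12.8% of the UMIs of the 5 genes in acinar-like nuclei, against 18.8%, 16.4% and 11.8% in macrophage-like nuclei, with overlapping intervals in each library. In duct-like nuclei of the tamsulosin library it was 6.66% (4.88% to 8.83%), and in low-complexity nuclei of that library 3.21% (1.998% to 4.87%), both below the macrophage interval of 10.2% to 13.5%. In T or NK-like nuclei of that library Ciita was 20.8% of 72 UMIs (12.2% to 32.0%), above the duct-like and low-complexity intervals. At least 2 of the 5 genes were seen in 4 of 206 thinned T or NK-like nuclei there, beside 4 of 2584 acinar-like nuclei. The low-complexity nuclei of cluster 2 (2241 nuclei, tamsulosin) carried 101 CPM of the 5 genes, beside 100 CPM in T or NK-like nuclei there. In duct-like nuclei of the scopolamine library Ciita had 18 UMIs in 15 of 458 nuclei, 10.97 CPM (6.50 to 17.3), against 2.45 CPM in T or NK-like nuclei of that library from 1 UMI (0.0621 to 13.7).

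The rest of the pathway was read in macrophage-like nuclei from lists of related genes. Their counts stand beside the shares over all genes given above: 17% in scopolamine against control, 8.81% in tamsulosin against scopolamine and 24% in tamsulosin against control. These calls, too, are relative to the median gene, at -0.23, -0.25 and -0.50 (log2) in that order. A gene counted higher can therefore differ by less than 1.5-fold in CPM. Of 6 other class II and peptide exchange genes, 2 could be tested, H2-DMa and H2-DMb1, which encode the chains of the DM molecule that removes the invariant chain peptide. H2-DMa had 27, 39 and 36 UMIs in the 3 libraries and H2-DMb1 had 37, 42 and 52. Both were counted higher in tamsulosin than in control, beside 24% of all genes, H2-DMa alone in scopolamine than in control, and neither in tamsulosin than in scopolamine. H2-Eb2 had 0 UMIs in macrophage-like nuclei of every library.

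Of 8 invariant chain and antigen processing genes, 5 of 6 tested were counted higher in scopolamine than in control (17% of all genes). The counts were 3 of 7 in tamsulosin against scopolamine (8.81%) and 7 of 7 in tamsulosin against control (24%). In acinar-like nuclei 3 of 4 tested were also counted higher in scopolamine than in control, beside 444 of 5755 genes. There it was 0 of 4 in tamsulosin against scopolamine (135 of 5439 genes) and 3 of 4 in tamsulosin against control (506 of 5689). Whether the macrophage counts reflect a difference between libraries common to several classes was not tested. Ctss, a cathepsin that cuts the invariant chain, had 190, 284 and 447 UMIs and was 1.61-fold higher in tamsulosin than in scopolamine. Cst3, a secreted cathepsin inhibitor that is also in this list, had 20, 27 and 96 UMIs. Lgmn, an endopeptidase of the same vesicles, had 167, 271 and 251 UMIs, so it was lower in control than in the other libraries, with a ratio of 0.95 between tamsulosin and scopolamine.

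Of 11 interferon gamma pathway genes, 5 of 8 tested were counted higher in scopolamine than in control (17% of all genes) and 7 of 8 in tamsulosin than in control (24%). In tamsulosin against scopolamine 1 of 8 was, a share near the 8.81% of all genes. Ifngr2, a receptor subunit, had 56, 95 and 93 UMIs, and Spi1, the myeloid factor PU.1, had 80, 167 and 157. Ifng itself had 0 UMIs in macrophage-like nuclei of each library. Between tamsulosin and scopolamine the Spi1 ratio was 0.964, beside 1.92 for the sum of the chain genes and Cd74.

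Of 12 factors of the class II promoter, 1 of 8 tested was counted higher in scopolamine than in control, 0 of 8 in tamsulosin than in scopolamine, and 2 of 8 higher and 1 lower in tamsulosin than in control. These shares are near those of all genes, 17%, 8.81%, 24% and, for lower, 20%. Nfya, a subunit of the Y box factor, had 26, 50 and 30 UMIs. Rfx5, the X box factor mutated in a form of bare lymphocyte syndrome, had 19, 9 and 3 UMIs, too few to test. Of 5 class II turnover genes 4 were tested, and 2, 2 and 3 of them were counted higher in the 3 comparisons, beside 17%, 8.81% and 24% of all genes. March1, the ubiquitin ligase that removes class II from the surface, had 190, 343 and 423 UMIs and was counted higher in all 3 comparisons. Cd83, which opposes March1, had 20, 55 and 42.

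Of 7 costimulation genes 2 were tested against control and both were counted higher in scopolamine (17% of all genes) and in tamsulosin (24%), while 0 of 3 were in tamsulosin against scopolamine (8.81%). The 2 were Cd86 with 140, 203 and 158 UMIs and Cd274, the inhibitory ligand PD-L1, with 19, 48 and 35. Of 5 genes for the Cd74 ligand and its partners only Cd44 could be tested, with 38, 123 and 97 UMIs. Cd44 was 3.53-fold higher in scopolamine than in control and 0.809 of the scopolamine level in tamsulosin.

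Across 28 sums of class and library, each of at least 50 nuclei, the genes with the most similar pattern were sought among 6542 genes. For Ciita these were Cd40, a costimulatory receptor, with a Pearson r of 0.95 on log2 levels, then Pkib (0.93), Pld4 (0.92), Irf5 (0.92) and Ncf1 (0.92). For the mean of the 3 chain genes and Cd74 they were Irf5, an interferon regulatory factor of myeloid and B cells (0.95), Themis2 (0.93), Ctss (0.93), Fgd2 (0.92) and Cd40 (0.92). The sums share libraries and depth, so these values are a description. Within macrophage-like nuclei Irf5 stood at 26.8, 51.6 and 82.2 CPM in the control, scopolamine and tamsulosin libraries and Cd40 at 12.003, 27.7 and 20.5.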

How the data were processed

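UMI counts per gene and nucleus were deposited by the authors as raw count matrices, made with Cell Ranger 5.0.0 against mm10 per the submitters' processing notes; whether intronic reads were counted is not given in the sources used here. The 3 libraries held 7253, 10024 and 12322 barcodes and 33500727, 35237256 and 57969348 UMIs (control, scopolamine, tamsulosin). Nuclei with at least 500 UMIs, 300 genes and at most 5% mitochondrial UMIs were kept. Scrublet's automatic threshold called 0 doublets, so nuclei were instead removed from the top of the score ranking, 0.8% of a library for each 1000 nuclei in it.

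Clustering (scanpy 1.11.5, 2000 variable genes, 30 components, Leiden resolution 1.0) left out class II genes. Classes were named from marker lists; the naming thresholds were set after the clusters were seen, and clusters whose markers did not meet them stayed unnamed. The members, marker lists and pathway lists were chosen with earlier results of these data known.

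UMIs were summed per class and library and divided by the class total (CPM). Poisson, Clopper-Pearson and exact conditional binomial intervals at 95% cover counting error only. Where a count is 0, the limit is 3 counts. Log2 ratios used a pseudocount of 5 CPM and genes with a mean of at least 20 CPM, relative to the class median. Whole classes with under 50 nuclei in a library were not compared. Single clusters were compared down to 9 nuclei in a library, as in dendritic-like cluster 30. A gene with under 20 CPM is described as too few to test. The medians of all genes lay at -0.23, -0.25 and -0.50 (log2) in macrophage-like nuclei. The ratio and interval code was tested on simulated data. Named were the 5 members, the 5 genes most like Ciita and most like the mean of the other 4, and list members with at least 30 UMIs in the higher library past 1.5-fold in macrophage-like nuclei; other list members are named to say what a list holds. Of the listed pathway genes, 1 is counted in its list but not reported by name here.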

Additional observations from a re-analysis of the deposited data

Results flagged for a closer look

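The summed level of H2-Ab1, H2-Aa, H2-Eb1 and Cd74 in scopolamine against control was 0.745 in dendritic-like nuclei (0.61 to 0.91) and 1.79 in macrophage-like nuclei (1.58 to 2.02). It was picked out because the classes moved in opposite directions between the same pair of libraries. Within the dendritic-like class only cluster 21 was lower, with a ratio of 0.607 (0.49 to 0.76). The summed level of the smaller cluster 30 was higher, as in macrophages, with a ratio of 2.35 (1.29 to 4.58). It came from 14 UMIs in 9 control nuclei and 56 UMIs in 20 scopolamine nuclei. The share of its thinned nuclei with a UMI of the 5 genes was not higher, since 6 of 9 control and 14 of 20 scopolamine nuclei had 0. The difference between the classes was not tested, since each group is 1 library, and the dendritic-like class had 55 control nuclei. Relative to the median gene of each class, the log2 differences were -0.16 and 1.05. On nuclei thinned to 1000 UMIs the dendritic-like ratio was 0.962 (0.66 to 1.41).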

How the results depend on the processing

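No paired analysis was possible because each group has 1 library, and no library could be left out. Counting error limits dendritic-like, B-like and T or NK-like values, and animals, dissection and preparation cannot be told apart from treatment. In macrophage-like nuclei every ratio of the sum of 4 stayed above 1 under the 8 alternatives run. Scopolamine against control moved from 1.79 to 1.43 with at least 1600 UMIs, 1.41 on thinned nuclei, 2.07 without the 50 most abundant genes and 1.52 with dendritic-like nuclei pooled in. Tamsulosin against scopolamine moved from 1.92 to 1.52 with doublets kept, 2.28 without the abundant genes and 1.73 pooled. Tamsulosin against control moved from 3.42 to 2.70 with doublets kept, 2.65 with at least 1600 UMIs, 3.02 with class II genes in the clustering, 2.50 thinned, 4.72 without the abundant genes and 2.63 pooled. The count of members higher in scopolamine than in control fell from 5 to 2 with at least 1600 UMIs, 3 thinned, 3 pooled and 2 with no low-level filter. The share of all genes was not taken under these 4 settings. For dendritic-like nuclei, scopolamine against control became 0.962 thinned, and tamsulosin against control became 1.16 thinned and 1.14 without the abundant genes; with at least 1600 UMIs or class II genes allowed there was no value. The last 2 crossed 1, from 0.906, whose interval held 1. Among ratios whose interval did not hold 1, those that changed side were H2-Eb1 in macrophage-like nuclei, scopolamine against control, 0.972 thinned, and 6 in acinar-like nuclei, where no difference is read. These were scopolamine against control for Cd74 (0.761 with at least 1600 UMIs) and for the sum (0.838 with doublets kept, 0.707 with at least 1600 UMIs), tamsulosin against scopolamine for H2-Aa (0.884 thinned), and tamsulosin against control with doublets kept for H2-Aa (0.965) and H2-Eb1 (0.982). The cause of these moves was not tested. Pooling and subtraction of the T or NK-like level were chosen after seeing the data.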
